A study of Mus musculus with 10 samples.

Results

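The genes described here are 10 genes for neuronal microtubule-associated proteins, *Map1a*, *Map1b*, *Map2*, *Mapt*, *Map4*, *Dcx*, *Dclk1*, *Stmn2*, *Clasp1* and *Clasp2*. They were chosen by name as rows of the deposited count table, which holds 24453 genes. The RNA-seq libraries came from layer 5 of the right primary motor cortex (M1) of male *Fezf2-Gfp* mice, a hemizygous transgenic line on a Swiss Webster background in which GFP is driven by *Fezf2* regulatory elements. Cholera toxin subunit B (CTB), a retrograde tracer carrying a far-red dye, was placed in the left M1 between postnatal days 23 and 25, and tissue was taken between postnatal days 28 and 32. Intratelencephalic projection neurons (IT-PNs), which send axons to the opposite cortex, were sorted by FACS as *Fezf2+ve* IT-PNs when they carried both GFP and CTB and as *Fezf2−ve* IT-PNs when they carried CTB alone. Each of 5 animals gave 1 library of each type. The types were therefore defined by a reporter transgene and a tracer, and no untreated group is among the 10 libraries.

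Microtubule-associated proteins bind along or at the ends of microtubules and set how stable the polymer is, how filaments are spaced and where they grow. In mature projection neurons the *Map2* product is best known from dendrites and tau, the *Mapt* product, from axons, whereas doublecortin, the *Dcx* product, is a marker of migrating and newly formed neurons. Stathmins such as the *Stmn2* product bind tubulin and favour microtubule disassembly, and CLASP proteins sit at growing plus ends and promote the rescue of shrinking microtubules.

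Between 89138 and 217738 reads were counted on genes per library, so that 3 reads, the number taken here as the floor of detection, correspond to 13.8 to 33.7 CPM (counts scaled to equal library totals). In the libraries labelled *Fezf2+ve* the total had a median of 118134 and in those labelled *Fezf2−ve* a median of 168711. Reads on the synthetic ERCC spike-in made up between 2.79 and 46.7% of the reads on genes and spike-in together, with the highest share in *Fezf2+ve* library 1. The libraries were amplified and no molecular identifiers are named, so reads cannot be taken as separate molecules, and all floors and intervals on reads given here cover counting error only.

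The labelled cell type was compared with its defining markers. Of 12 marker genes of excitatory cortical neurons, *Tbr1* and *Neurod1* had 0 reads in all 10 libraries. *Slc17a7*, the vesicular glutamate transporter of cortical projection neurons, had 11 reads in all libraries together and at most 3 in any of them. *Slc17a6* had 1 read in all, *Neurod2* and *Neurod6* had 2 each, *Nrgn* had 7 and *Rbfox3* had 11. The synaptic genes *Snap25* and *Syt1* had 62 and 72 reads. *Camk2a*, with 588 reads the most abundant gene of the list, had 529 of them in *Fezf2−ve* library 3. The list summed to between 26.4 and 601 CPM in the *Fezf2+ve* and between 41.3 and 3330 CPM in the *Fezf2−ve* libraries. *Slc17a7*, *Slc17a6*, *Tbr1*, *Neurod1*, *Neurod2* and *Neurod6* were thus at or near 0. *Camk2a*, *Syt1* and *Snap25* had more reads, but many of them in single libraries. Besides *Fezf2−ve* library 3, *Camk2a* had 32 reads in *Fezf2+ve* library 1 and 8 or fewer in every other library. *Snap25* had 35 of its reads in *Fezf2+ve* library 1, and *Syt1* had 30 in *Fezf2+ve* library 2. The libraries are named below by their labels only.

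Markers of other cell types were examined in the same way. All 12 microglial markers had reads, and their summed level lay between 72.6 and 271 CPM in *Fezf2+ve* libraries and from 1840 to 7170 CPM in *Fezf2−ve* libraries, so that the types did not overlap. *Ctss*, the most abundant of them, gave 5, 4, 0, 0 and 1 reads in *Fezf2+ve* libraries 1 to 5 and 372, 91, 196, 92 and 56 in *Fezf2−ve* libraries 1 to 5. In the edgeR fit blocked by animal all 12 were lower in *Fezf2+ve* libraries and 0 were called, as were 0% of all tested genes. Without the block 10 of the 12 and 3.77% of all tested genes were called. The paper reports *C1q* genes, *Csf1r* and *Tyrobp* as raised in *Fezf2−ve* IT-PNs and takes these neurons to express them. The 6 markers of oligodendrocyte precursors summed to between 85.8 and 3230 CPM in the *Fezf2+ve* and between 137 and 1140 CPM in the *Fezf2−ve* libraries, with *Pdgfra* as the most abundant (740 reads in all). The 9 oligodendrocyte markers summed to between 106 and 10800 CPM in the *Fezf2+ve* and between 114 and 2050 CPM in the *Fezf2−ve* libraries. Of the 9 astrocyte markers *Gfap* had 0 reads in every library, and *Slc1a2*, the most abundant, had 1817 reads. The astrocyte list summed to between 477 and 7660 CPM in the *Fezf2+ve* and between 110 and 3800 CPM in the *Fezf2−ve* libraries. Of the 8 interneuron markers 4 had 0 reads in every library (*Slc32a1*, *Pvalb*, *Vip* and *Lhx6*), *Gad1* had 4, *Gad2* 6 and *Sst* 1, and 1606 reads fell on *Adarb2*, 1144 of them in *Fezf2−ve* library 5. The interneuron list summed to between 33.9 and 1770 CPM in the *Fezf2+ve* and between 66.2 and 5270 CPM in the *Fezf2−ve* libraries. The 7 endothelial markers reached at most 83.6 CPM in any library, with *Flt1* as the most abundant (26 reads). Of the 8 markers of immature neurons 6 had 0 reads in every library, and *Draxin*, the most abundant, had 2 of the 3 reads of the list. *Fezf2+ve* library 2 had the highest sums of the oligodendrocyte, precursor and astrocyte lists and also the highest summed CPM, 780, of the 8 genes other than *Clasp1* and *Map4*. *Fezf2+ve* library 4 had the next highest sum of these genes, 462 CPM, with 106, 85.8 and 1760 CPM on the same lists. CPM are scaled by library totals only. The TMM factor, by which the tests scale these totals further, was highest in *Fezf2+ve* library 2 (1.475) and lowest in *Fezf2+ve* library 4 (0.5681). The order of the libraries depended on this scaling. The part of these cell types in the values of the microtubule-associated protein genes was not tested. In bulk samples such as these, fewer cells of a type and less RNA per cell cannot be told apart, nor can other cells and expression within the sorted neurons.

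**Figure D1:**
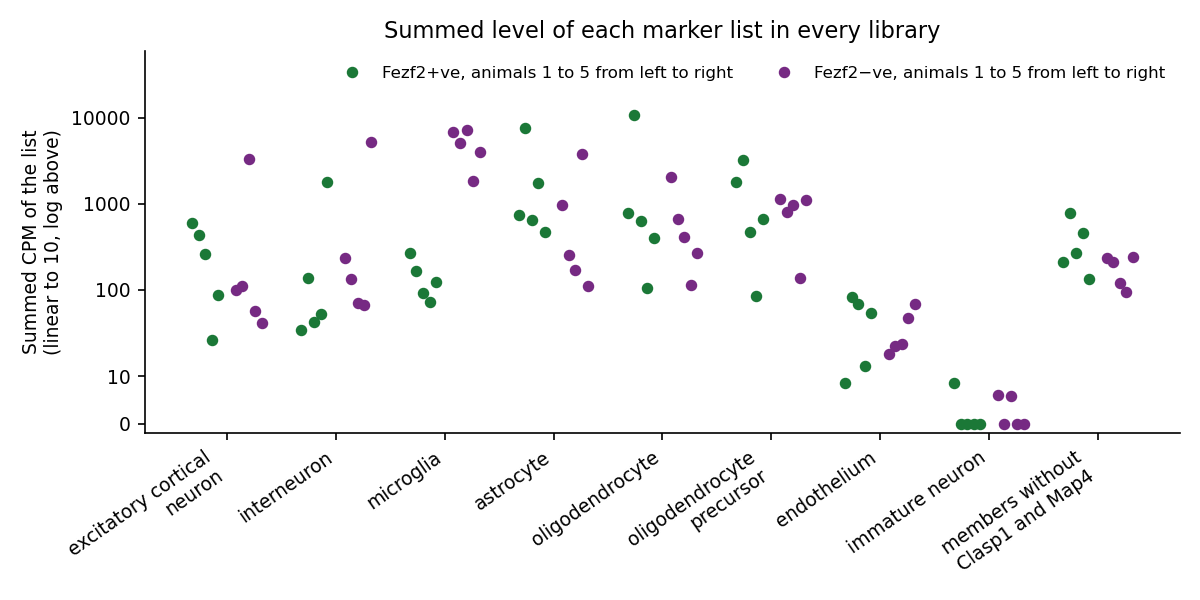
Summed CPM of each marker list (vertical axis, linear to 10 and logarithmic above) in every library, with the libraries of animals 1 to 5 from left to right within each type, and beside them the summed CPM of the 8 microtubule-associated protein genes other than *Clasp1* and *Map4*. The microglial list separates the types without overlap, whereas the 8 genes range from 133 to 780 CPM in the *Fezf2+ve* and from 94.6 to 243 CPM in the *Fezf2−ve* libraries.

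Together the 10 genes held between 0.0466 and 3.83% of the gene reads of a library. Of their 16793 reads, 13574 were on *Clasp1* and 2830 on *Map4*. The other 8 genes had between 19 and 84 reads per library in sum. Between 4 and 8 of the 10 genes reached 3 reads in a library. Most of these genes were therefore measured close to the floor, and *Clasp1* and *Map4* decided the total.

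**Figure D2:**
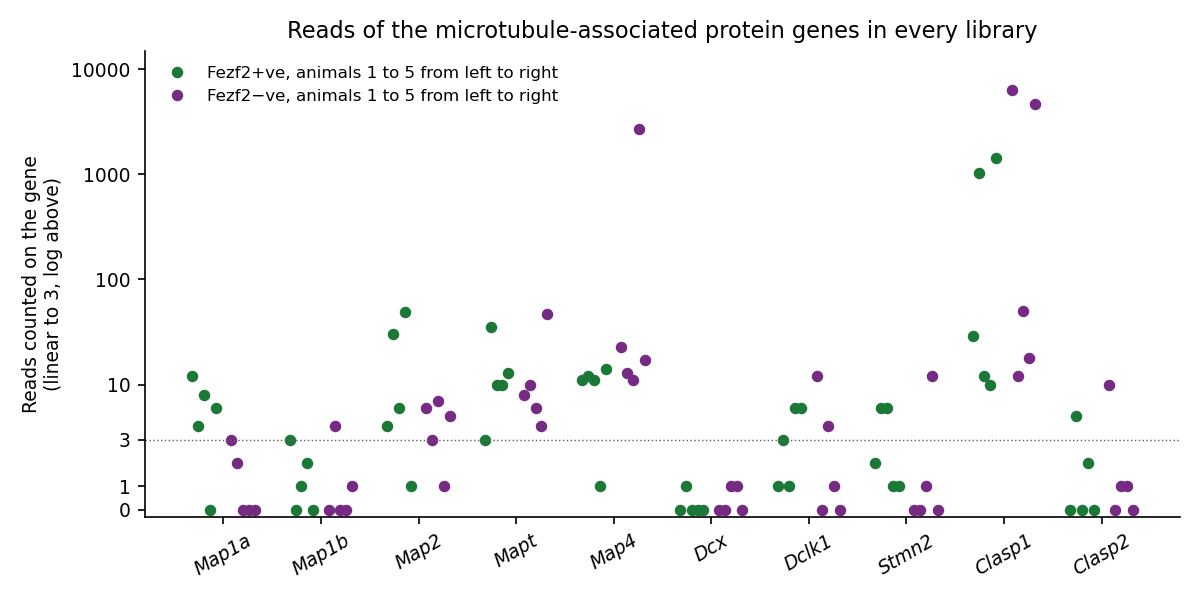
Reads counted on each of the 10 genes (vertical axis, linear to 3 and logarithmic above) in the libraries of animals 1 to 5, from left to right within each type, with the floor of 3 reads as a dotted line. *Clasp1* exceeds 1000 reads in 4 libraries and *Map4* in 1, whereas the other 8 genes stay at or below 49 reads.

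*Map1a* (ENSMUSG00000027254.13, plus strand, chr2:121289600-121310832 of GRCm38) encodes a large structural protein of mature dendrites and axons. It gave 12, 4, 8, 0 and 6 reads in *Fezf2+ve* libraries 1 to 5 and 3, 2, 0, 0 and 0 in *Fezf2−ve* libraries 1 to 5. It was higher on the *Fezf2+ve* side in 4 of 5 animals and at 0 in both libraries of animal 4, and the ranges of the types overlapped. Its level was 4.59 ± 2.66 (SD, n = 5) over *Fezf2+ve* libraries and 1.76 ± 2.41 (SD, n = 5) over *Fezf2−ve* libraries on the log2(CPM + 1) scale. The log2 fold change, *Fezf2+ve* relative to *Fezf2−ve* IT-PNs throughout, was 2.97 (standard error 1.52, 95% interval -0.22 to 6.15), with an adjusted p of 0.998 (quasi-likelihood test of edgeR blocked by animal, Benjamini-Hochberg). The 3′ end of *Map1a* overlaps *Ppip5k1* on the minus strand (chr2:121310561-121355396), which had at most 4 reads in any library, and reads in the shared stretch may count for both genes, since the use of strand in counting is not given.

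*Map1b* (ENSMUSG00000052727.6, minus strand, chr13:99421446-99516540), whose product is prominent in growing axons, gave 3, 0, 1, 2 and 0 reads in *Fezf2+ve* libraries 1 to 5 and 0, 4, 0, 0 and 1 in *Fezf2−ve* libraries 1 to 5. It reached 3 reads in 2 of 10 libraries, 1 of each type. Its log2 fold change of 0.92 had a 95% interval from -3.31 to 5.14. A difference in *Map1b* was not detectable at these counts, and its sign turned to -0.70 when all libraries were downsampled to 89138 reads.

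*Map2* (ENSMUSG00000015222.17, plus strand, chr1:66175273-66442583), the dendritic protein, gave 4, 30, 6, 49 and 1 reads in *Fezf2+ve* libraries 1 to 5 and 6, 3, 7, 1 and 5 in *Fezf2−ve* libraries 1 to 5. The highest values were those of *Fezf2+ve* libraries 2 and 4. Its level was 5.97 ± 2.38 (SD, n = 5) over *Fezf2+ve* libraries and 4.57 ± 1.18 (SD, n = 5) over *Fezf2−ve* libraries on the log2(CPM + 1) scale. Its fold change was 1.29 on the log2 scale (95% interval -1.66 to 4.24), and *Map2* was higher on the *Fezf2+ve* side in 3 of 5 animals. The log2 fold change moved to 2.71 without the block (adjusted p = 0.211, quasi-likelihood test of edgeR, Benjamini-Hochberg) and to 0.35 with the block but without animal 4.

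*Mapt* (ENSMUSG00000018411.17, plus strand, chr11:104231390-104332090), which encodes tau, gave 3, 35, 10, 10 and 13 reads in *Fezf2+ve* libraries 1 to 5 and 8, 10, 6, 4 and 47 in *Fezf2−ve* libraries 1 to 5. It was the only one of the 10 genes besides *Clasp1* with at least 3 reads in all 10 libraries, and the types overlapped over almost their whole range. Its level was 6.32 ± 1.31 (SD, n = 5) over *Fezf2+ve* libraries and 5.94 ± 1.36 (SD, n = 5) over *Fezf2−ve* libraries on the log2(CPM + 1) scale. The log2 fold change of 0.46 had the narrowest 95% interval of the 9 tested genes, from -1.79 to 2.71.

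*Map4* (ENSMUSG00000032479.15, plus strand, chr9:109931460-110083955) encodes a structural protein found in most tissues. It gave 11, 12, 11, 1 and 14 reads in *Fezf2+ve* libraries 1 to 5 and 23, 13, 11, 2717 and 17 in *Fezf2−ve* libraries 1 to 5. *Fezf2−ve* library 4 alone held 96.0% of all *Map4* reads, where *Map4* ranked 23rd among genes by reads, and the *Fezf2+ve* library of the same animal had the fewest. The other 8 libraries held between 11 and 23 reads each. With the animal as a block the log2 fold change was -0.93 (95% interval -3.93 to 2.08), and it moved to -0.17 without animal 4.

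*Dcx* (ENSMUSG00000031285.14, minus strand, chrX:143855842-143933311) had 1 read in *Fezf2+ve* library 2 and 1 read each in *Fezf2−ve* libraries 3 and 4. No library reached the floor, *Dcx* did not pass the filter on low counts, and no fold change is given. *Dclk1* (ENSMUSG00000027797.15, plus strand, chr3:55242364-55539068) encodes a doublecortin-like kinase that binds microtubules. It gave 1, 3, 1, 6 and 6 reads in *Fezf2+ve* libraries 1 to 5 and 12, 0, 4, 1 and 0 in *Fezf2−ve* libraries 1 to 5. Both types had 17 reads in sum, and the log2 fold change was 1.22 (95% interval -2.19 to 4.64), with 2.43 without animal 1, 0.29 without animal 5 and -0.23 without the block and animal 4. *Stmn2* (ENSMUSG00000027500.10, plus strand, chr3:8509360-8561606), the neuronal stathmin, gave 2, 6, 6, 1 and 1 reads in *Fezf2+ve* libraries 1 to 5 and 0, 0, 1, 12 and 0 in *Fezf2−ve* libraries 1 to 5. It was higher on the *Fezf2+ve* side in 4 of 5 animals, and the exception, animal 4, held the highest value. The log2 fold change of *Stmn2* was 2.15 (95% interval -1.15 to 5.45), and it moved to 0.26 without the block and to 3.74 with the block but without animal 4.

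*Clasp2* (ENSMUSG00000033392.16, plus strand, chr9:113741473-113919682) gave 0, 5, 0, 2 and 0 reads in *Fezf2+ve* libraries 1 to 5 and 10, 0, 1, 1 and 0 in *Fezf2−ve* libraries 1 to 5. It reached 3 reads in 2 libraries, and its log2 fold change was -0.09 (95% interval -3.55 to 3.38). The sign of that value turned when animal 1 or animal 3 was left out, to 1.20 and 0.41.

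*Clasp1* (ENSMUSG00000064302.13, plus strand, chr1:118389058-118612678) gave 29, 1019, 12, 10 and 1424 reads in *Fezf2+ve* libraries 1 to 5 and 6377, 12, 50, 18 and 4623 in *Fezf2−ve* libraries 1 to 5. The values fell into 2 ranges with no library between them, 4 libraries at 1019 to 6377 reads and 6 libraries at 10 to 50 reads, and both ranges held libraries of both types. *Clasp1* was the gene with the most reads in *Fezf2−ve* library 1, with 3.80% of its gene reads, and it ranked 3rd in *Fezf2−ve* library 5, 15th in *Fezf2+ve* library 2 and 28th in *Fezf2+ve* library 5. In animal 5 both libraries were high, and in animals 3 and 4 both were low. The fit gave a log2 fold change of -1.12 (standard error 1.81, 95% interval -4.92 to 2.69), and *Clasp1* was lower on the *Fezf2+ve* side in 4 of 5 animals. The value moved to -0.13 without animal 1 and to -2.13 without animal 2. The level was 9.33 ± 3.41 (SD, n = 5) over *Fezf2+ve* libraries and 10.26 ± 4.20 (SD, n = 5) over *Fezf2−ve* libraries on the log2(CPM + 1) scale.

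The annotated gene *2900060B14Rik*, a noncoding antisense gene of 616 bases (minus strand, chr1:118458652-118459267 of GRCm38), lies in an intron of *Clasp1*, touches none of its exons and has a row of its own in the count table. It had 27 reads in *Fezf2+ve* library 2, 55 in *Fezf2+ve* library 5, 240 in *Fezf2−ve* library 1 and 150 in *Fezf2−ve* library 5, and 0 reads in the other 6 libraries. These are the 4 libraries in which *Clasp1* exceeded 1000 reads. BEDTools multiCov gives a read to each of the listed genes that it overlaps, but the sources used here give neither the use of strand nor whether whole gene spans or exons were counted, so it is not known whether reads of the nested gene also count for *Clasp1*. If they do, reads on the nested gene amounted to 2.65% (exact Clopper-Pearson 95% interval 1.75 to 3.83) of the *Clasp1* reads in *Fezf2+ve* library 2, to 3.86% (2.92 to 5.00) in *Fezf2+ve* library 5, to 3.76% (3.31 to 4.26) in *Fezf2−ve* library 1 and to 3.24% (2.75 to 3.80) in *Fezf2−ve* library 5. In the other 6 libraries the *Clasp1* reads numbered 131 in sum, and 0 reads on the nested gene gave upper limits of the same interval of 7.11 to 30.8% in single libraries and of 2.78% over the 6 together, the latter above the lowest of the 4 shares and below the other 3. How the remaining *Clasp1* reads were placed along the gene was not analysed here.

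**Figure D3:**
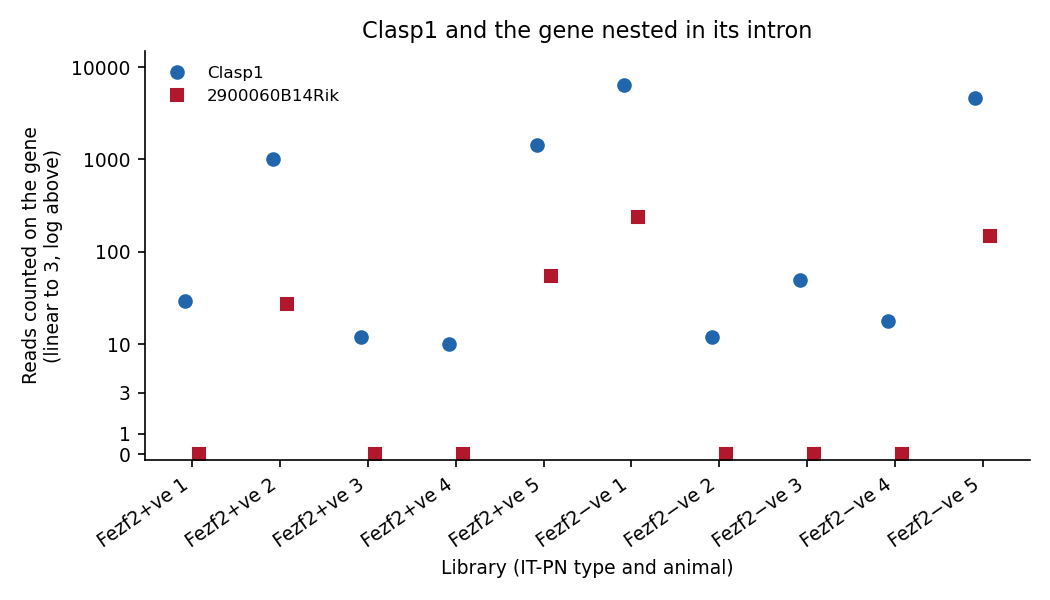
Reads counted on *Clasp1* (circles) and on *2900060B14Rik*, the gene nested in its intron (squares), in each of the 10 libraries (vertical axis, linear to 3 and logarithmic above). Reads on the nested gene appear in the 4 libraries with 1019 to 6377 *Clasp1* reads and are at 0 in the 6 libraries with 10 to 50.

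The sequence of the nested transcript is shown because its reads accompany the high *Clasp1* counts. Both stretches are from the GENCODE transcript 5′ to 3′ on the minus strand of GRCm38, the first 150 bases at chr1:118459118-118459267 and the last 100 bases at chr1:118458652-118458751. Capitals in the first stretch mark the annotated snRNA gene *Gm22710* (125 bases, chr1:118459141-118459265), which has no row in the count table, and capitals in the second mark the run of 17 A at the transcript's annotated end.
2900060B14Rik start: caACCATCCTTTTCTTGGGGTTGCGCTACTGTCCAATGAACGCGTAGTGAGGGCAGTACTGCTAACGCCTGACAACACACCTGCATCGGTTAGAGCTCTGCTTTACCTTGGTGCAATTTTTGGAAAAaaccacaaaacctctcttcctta
2900060B14Rik end: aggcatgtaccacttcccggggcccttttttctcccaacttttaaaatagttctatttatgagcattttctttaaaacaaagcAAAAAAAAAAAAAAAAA
Of 141767 GENCODE transcripts, 225 (0.159%) end in a run of at least 16 A. The first reverse transcription of the protocol was primed with an oligo(dT) primer, and the part of such runs in the counts was not tested.

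The protocol favours fragments from 3′ ends of transcripts, so levels are given first without regard to length. The median over the 10 libraries was highest for *Clasp1* at 270.9 CPM, followed by *Map4* at 93.1, *Mapt* at 64.9, *Map2* at 34.8 and *Map1a* at 20.15 CPM. Since whether introns were counted is not given, 2 lengths were used. Per kb of gene span, the median level was highest for *Clasp1* at 1.21 CPM per kb, followed by *Map1a* at 0.949, *Mapt* at 0.645 and *Map4* at 0.611 CPM per kb. *Map2* followed at 0.130, *Stmn2* at 0.120, *Dclk1* at 0.0542, *Map1b* at 0.0241 and *Clasp2* at 0.0133 CPM per kb, and the median of *Dcx* was 0. The ranges over libraries of all neighbours in this order overlapped. Overlap of ranges cannot show that neighbours did not differ, since all genes were measured in the same libraries, and they were not compared within libraries. Per kb of the longest transcript, *Clasp1* at 26.4, *Map4* at 15.3 and *Mapt* at 12.4 CPM per kb were highest, *Map1a* fell to rank 7, and 6 of the 10 genes changed rank. The order below *Clasp1* therefore depended on whether and how length was counted.

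**Figure D4:**
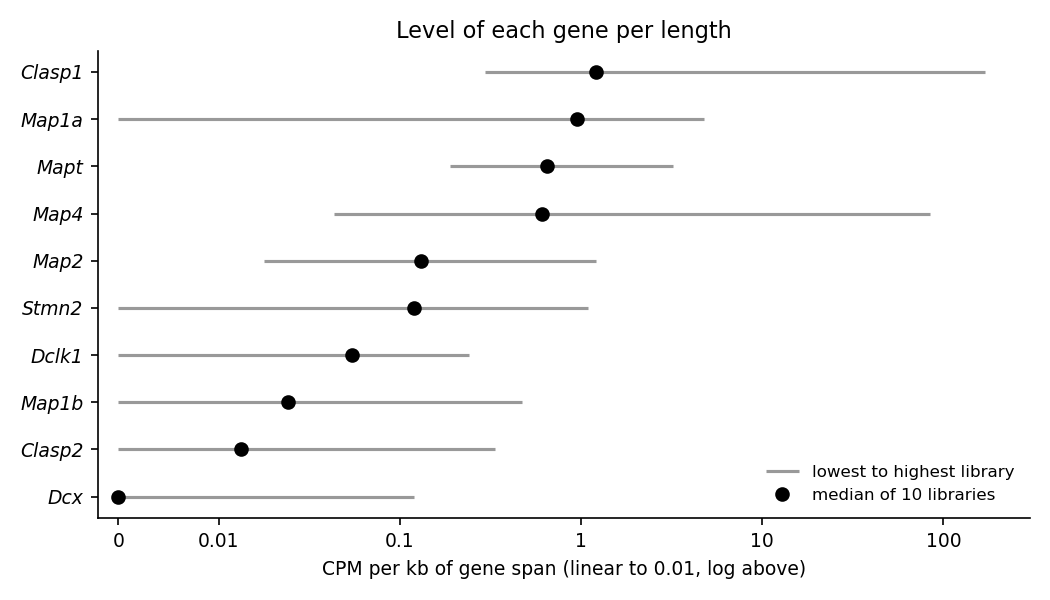
Median CPM per kb of gene span over the 10 libraries (points) and the lowest to highest library (lines) for each of the 10 genes, on an axis that is linear to 0.01 and logarithmic above. The line of *Clasp1* reaches 170 and that of *Map4* 84.3 CPM per kb, each far above its median.

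The comparison of the types asks whether the libraries labelled *Fezf2+ve* and *Fezf2−ve* differ in these genes. *Fezf2* itself had 1 read in all, in *Fezf2+ve* library 5. By RT-PCR, the paper reports a *Fezf2* product in the *Fezf2+ve* samples and none in the *Fezf2−ve* samples. Of the 10 genes, 9 passed the filter of at least 10 CPM in at least 2 libraries, and 0 of them had an adjusted p at or below 0.1 (quasi-likelihood test of edgeR blocked by animal, Benjamini-Hochberg over 7409 genes). The same test called 0 of the 7409 genes (0%), and DESeq2 with the block called 98 of them (1.32%). The independent filter of DESeq2 left only 1664 genes with an adjusted p, and the 98 were 5.89% of these. Among the 1664 were 4 of the 9 (*Map2*, *Mapt*, *Map4* and *Clasp1*), of which 0 were called, and the other 5 could not be called. An unadjusted p under 0.05 was found for 288 of all tested genes and for 0 of the 9, where the smallest was 0.0663, for *Map1a*. The log2 fold change was positive for 6 and negative for 3 of the 9 genes, with a median of 0.92, beside a median of -0.16 and 3388 positive values over all tested genes. All 9 intervals included 0 and spanned more than 4 log2 units.

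Without the block, 279 of the 7409 genes (3.77%) and 1 of the 9, *Map4*, had an adjusted p at or below 0.1 (quasi-likelihood test of edgeR, Benjamini-Hochberg). The log2 fold change of *Map4* was then -5.94 (standard error 1.81, adjusted p = 0.0931, quasi-likelihood test of edgeR, Benjamini-Hochberg), with lower CPM in *Fezf2+ve* libraries in 4 of 5 animals. Without both libraries of animal 4, an alternative chosen after the reads had been seen, it was -0.22 (adjusted p = 0.941, same test of edgeR, Benjamini-Hochberg), and 0 of all tested genes were called. The call also depended on the form of the edgeR test: it was made in 4 of 6 configurations without the block, and the legacy quasi-likelihood method gave an adjusted p of 0.11 (edgeR with Benjamini-Hochberg adjustment). The *Map4* value without the block thus rested on animal 4, with 2717 *Fezf2−ve* reads and 1 *Fezf2+ve* read.

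**Figure D5:**
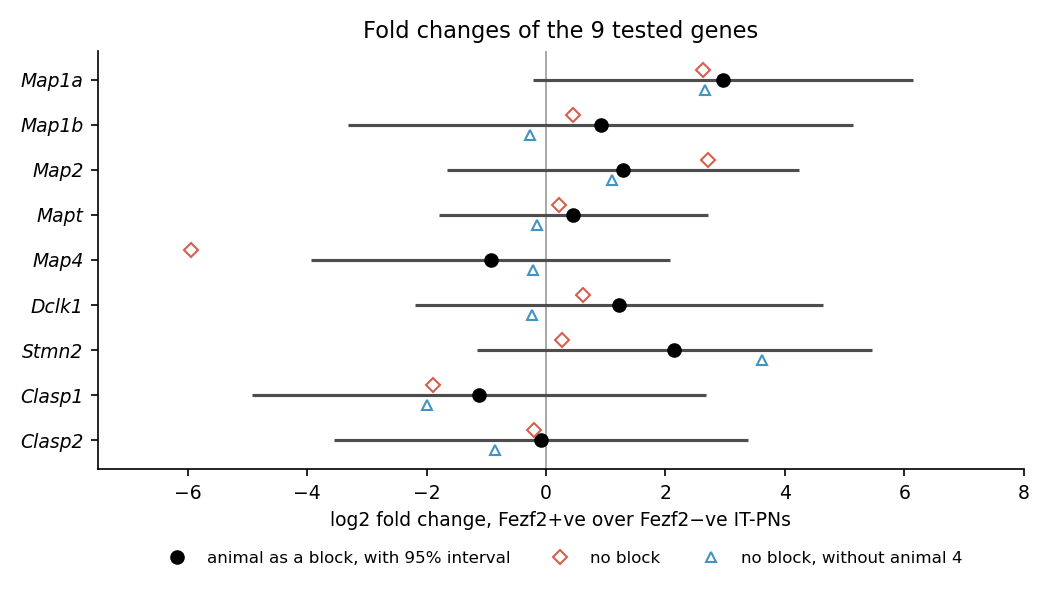
Log2 fold change (*Fezf2+ve* relative to *Fezf2−ve* IT-PNs) for the 9 tested genes, with the animal as a block (filled points, lines are 95% intervals), without the block (diamonds) and without the block and animal 4 (triangles). All intervals include 0, and the *Map4* value moves from -5.94 to -0.22 when animal 4 is left out.

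Concentration of reads in 1 library was common in these data. Of the 1445 genes with at least 100 reads, the library with the most reads held a median of 77.7% of a gene's reads, and for 485 genes it held over 90%. Among the 4 microtubule-associated protein genes with at least 100 reads this share was 96.0% for *Map4*, 47.0% for *Clasp1*, 43.8% for *Map2* and 32.2% for *Mapt*. *Map4* thus lay above the median of all such genes and the other genes below it. In at least 4 libraries, 1000 or more reads were found for 3 genes of the whole table, *Clasp1* among them.

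A list of 95 other genes of the microtubule cytoskeleton was examined beside the 10. Of these, 94 were in the count table, 84 had reads and 59 passed the filter. With the block 0 of the 59 were called, 1 had an unadjusted p under 0.05, and 34 were positive and 25 negative, with a median log2 fold change of 0.29 (quasi-likelihood test of edgeR). Setting the 3 genes with 0 reads in a type to their bound could not move that median, since each bound lay on the same side of it as the fitted value. Of 10 tested tubulin genes 4 were positive, with a median of -0.03, and the neuronal tubulin *Tubb3* had 1 read in all libraries. Of 15 tested end-binding proteins 10 were positive, of 12 tubulin-modifying enzymes 9, of 6 other structural proteins 4, of 6 doublecortin family and stathmin genes 4, of 2 severing enzymes 1 and of 8 kinases 2. None of these groups held a called gene with the block.

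Among the genes of this list with the smallest unadjusted p, single libraries held most reads of some and not of others. *Mapk8*, which encodes the kinase JNK1, gave 0, 0, 3, 0 and 0 reads in *Fezf2+ve* libraries 1 to 5 and 4, 0, 1161, 0 and 0 in *Fezf2−ve* libraries 1 to 5. Its pooled CPM was 317-fold lower in *Fezf2+ve* libraries (95% counting interval 108 to 1540), and *Fezf2−ve* library 3 held 99.4% of its reads. The blocked fit gave *Mapk8* a log2 fold change of -6.54 (95% interval -12.07 to -1.01, adjusted p = 0.998, quasi-likelihood test of edgeR, Benjamini-Hochberg). *Dcdc2a*, of the doublecortin family, was without reads in *Fezf2+ve* libraries (0 in each) and had 0, 6, 5, 2 and 0 in the *Fezf2−ve* libraries, at least 3.54-fold lower against a floor of 3 reads over the group. The tubulin ligase-like gene *Ttll9* was without reads in *Fezf2+ve* libraries (0 in each) and had 17 in the *Fezf2−ve* libraries, 15 of them in library 4, at least 4.63-fold lower against the same floor. Both bounds are on pooled reads and cover counting error only. With the block the fitted log2 fold changes were -4.25 (95% interval -8.81 to 0.31) for *Dcdc2a* and -3.85 (95% interval -8.18 to 0.47) for *Ttll9*, and both intervals included 0. In the other direction *Mapre2*, for an end-binding protein, had 1104 of its 1356 reads in *Fezf2+ve* library 3 and 222 in *Fezf2+ve* library 4. *Clip4* had 253 of its 258 reads in *Fezf2+ve* library 3, and its pooled CPM was 157-fold higher in *Fezf2+ve* libraries (95% counting interval 42.9 to 1300), but its fitted log2 fold change with the block, 4.28, had a 95% interval from -0.55 to 9.10. *Nav2*, for a neuron navigator protein, was spread more evenly, with 139, 181, 334, 5 and 551 reads in the *Fezf2+ve* and 22, 106, 73, 5 and 47 in the *Fezf2−ve* libraries. For *Nav2* this gave a log2 fold change of 2.21 (95% interval -0.29 to 4.71). Without the block *Mapre2*, *Clip4* and *Mark1* were called, with adjusted p of 0.0931, 0.0993 and 0.0931 (quasi-likelihood test of edgeR, Benjamini-Hochberg), and 6009 of the 6049 *Mark1* reads came from *Fezf2+ve* library 4. With the block the log2 fold change of *Mark1* was -0.23 (95% interval -3.55 to 3.08).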

How the data were processed

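The data were read counts of 10 libraries, 5 of each IT-PN type. After trimming, the authors used TopHat2 2.1.1 to map reads to mm10 and bedtools 2.26.0 to count them on RefFlat genes (versions from the submitters' processing notes), and the deposited counts are raw. A deposited table of the authors' DESeq2 comparison, with mean counts, fold changes and p-values, was not used. ERCC counts were used as a share of reads only.

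Genes that reached 10 CPM in 2 or more libraries (7409 of 24453) were normalized by TMM and tested in edgeR 4.0.16 (R 4.3.3) by the quasi-likelihood method, blocked by animal, with calls at a Benjamini-Hochberg adjusted p of 0.1 or less. Standard errors came from the fold change and the F statistic. The non-legacy form of this test was adopted after the counts of calls of 6 edgeR configurations, each with and without the block, had been seen, because its counts matched those of an earlier analysis of these data. The legacy form had been run first. With the block each of the 6 called 0 genes, and without it they called between 276 and 646. The animals pair the libraries per the sample records and the study's methods. As a check of the pairing, deviations from the type means correlated at 0.0292 on average between both libraries of an animal (5 pairs) and at -0.00729 between animals (20 pairs).

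The members, gene lists and tests were chosen with earlier results of these data known. Named are all 10 genes in every library, the genes of the microtubule list called without the block by the non-legacy test, and the 3 tested genes with the smallest unadjusted p in each direction, the most abundant gene of most marker lists and most defining markers of excitatory cortical neurons. The values of 2 marker genes are left out of the text but stay in the sums of their lists. *2900060B14Rik*, *Gm22710*, *Ppip5k1*, *Tubb3*, *Mark1*, *Fezf2* and the genes at 0 were chosen after their values were seen. Positions are from GENCODE M21 on GRCm38, which is mm10. DESeq2 1.42.0, other size factors, filters, thresholds, pseudocounts (0.5 in place of 1), downsampling and leaving out each animal were tried. The fits were tested on simulated data, where at the dispersion found here almost none of the changed genes were called. The simulation gave all genes the same dispersion and all changed genes the same size of change. It held no animal effects, so it cannot give the power of the tests in these data. Python 3.11.15, numpy 2.4.6, pandas 2.3.3, scipy 1.17.1 and matplotlib 3.10.9 were used for the remaining steps.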

Additional observations from a re-analysis of the deposited data

Results flagged for a closer look

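For each of the 10 genes and each type, the 5 libraries were examined on the log2(CPM + 1) scale for a library far from the others, and 5 such values were found in 20 groups. Chance gives about 1 in 20 groups of continuous values, but several of these groups hold zeros, and a single value above 0 as in *Dcx* always stands apart. In *Fezf2−ve* library 4, *Map4* was at 13.65, far above the other *Fezf2−ve* libraries, on 2717 reads. The *Fezf2+ve* library of the same animal was far below the others for *Map4*, at 2.93 on 1 read, and for *Map1a*, at 0 with no read. *Map2* was low in *Fezf2−ve* library 4, at 2.52 on 1 read. For *Dcx*, *Fezf2+ve* library 2 stood apart at 3.36 on 1 read, while the other 4 had none. Of these values, 4 came from animal 4, and all but the high *Map4* value lay below the floor of 3 reads, where 1 read more or less moves them. Their causes were not tested.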

How the results depend on the processing

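The pairing by animal and the tool moved the counts of calls. Without the animal block edgeR called 279 of all tested genes, 1 of the 10 genes and 3 of the microtubule list, against 0, 0 and 0 with it. The legacy quasi-likelihood method without the block, added after its count had been seen, called 638, 0 and 8. The 6 edgeR configurations without the block called between 276 and 646 of all tested genes. DESeq2 with the block called 98 of 1664 genes with an adjusted p (5.89%), 0 of 4 of the 10 genes and 0 of 22 of the microtubule list, and the rest had no adjusted p. Under the other settings with the block, and under no block without animal 4, the counts were 0. Of 132 fold changes of the 9 tested genes under alternatives, 1 newly passed the threshold (*Map4* without the block, -5.94) and 7 changed sign. *Map1b* was at -0.70 when downsampled and *Map1b*, *Mapt* and *Dclk1* were at -0.26, -0.15 and -0.23 without the block and animal 4, an alternative added after seeing the data. Without the block *Map1a* was at 2.62, *Map1b* at 0.44, *Map2* at 2.71, *Mapt* at 0.21, *Dclk1* at 0.62, *Stmn2* at 0.26, *Clasp1* at -1.89 and *Clasp2* at -0.21. With each animal left out in turn, *Map1b* ranged from -0.14 to 2.48 and *Clasp2* from -1.58 to 1.20. The others kept their sign, *Map1a* from 2.28 to 3.92, *Stmn2* from 1.59 to 3.74, *Dclk1* from 0.29 to 2.43, *Map2* from 0.35 to 2.00, *Mapt* from 0.04 to 0.90, *Map4* from -1.42 to -0.17 and *Clasp1* from -2.13 to -0.13. The cause of these changes was not tested. Mean log2 levels moved by less than 1 SD with a pseudocount of 0.5, in all 20 cases. Most of these genes had a few reads per library, and the common biological coefficient of variation was 1.19.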
